A study of Vitis vinifera with 26 samples.

Results

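Of the 33229 assembled loci of these grapevine berry libraries, 1490 (4.48%) held at least 1 antisense isoform, that is, an assembled transcript that overlaps a reference gene on the opposite strand. They were chosen by the deposited isoform class code x alone, which marks such an overlap in tables of this kind. The rule used no expression value, but only an isoform that had been assembled could enter, and earlier results of these data were known. RNA of 'Pinot Noir' (Vitis vinifera) berry clusters from plants 8 years old was sequenced in 26 libraries. In 13 libraries the cluster had been enclosed for 24 h with 5 ppm of 1-MCP (1-methylcyclopropene), which occupies ethylene receptors and so blocks the response to ethylene, at 6 (n = 3), 7 (n = 5) or 8 (n = 5) weeks after anthesis (WAA). The other 13 came from mock-treated control clusters at the same weeks, with the same numbers, and clusters were sampled after 24 h. Each treated cluster had a control cluster on the same plant, and the plant was the biological replicate. A replicate at 7 WAA is numbered 12, and the labels do not say whether it is a single plant or a pool, so it was counted as 1 of the 5. Group membership rests on source names and titles, because the description label calls all 26 libraries treated.

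Natural antisense transcripts are RNAs made from the strand opposite to a gene. They can pair with the sense RNA to form double-stranded RNA, from which plants can make small RNAs, and transcription of the antisense strand can interfere with that of the gene. In Arabidopsis, the COOLAIR antisense transcripts of FLC, a repressor of flowering, are a well-studied case. Detecting them by RNA sequencing depends on knowing the strand of each read, and the labels give only a standard Illumina library protocol, with no statement on strand. Reads of a gene and of its antisense partner therefore cannot be told apart with certainty in these libraries.

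The deposited value of an isoform was a signal on the authors' own scale. Within each library between 83.9% and 91.2% of the values above 0 were whole multiples of 1 step, and values were divided by that step to give units. A unit is not a read and is not per kilobase, so levels of different transcripts are not compared as amounts. The libraries held between 20368 and 23485 units, and between 13912 and 15261 loci reached 0.5 units, the level taken here as detected. Class x isoforms were summed per locus and kept apart from all other isoforms of the same locus. The gene on the opposite strand, called the sense partner, was the locus or loci whose other isoforms carried the same reference identifier. Differences are on the scale of log2(units + 1), on which a step between 0 and 1 unit equals 1, and were tested with limma over all rows of the table together.

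The 1490 loci held 1774 class x isoforms, 1.96% of all 90542 isoforms. In 1392 loci these were the only isoforms, whereas 98 loci held 287 isoforms of other classes as well. Most loci (1339) had 1 antisense isoform, 151 had several, and the most were 20 and 17. They lay opposite 1371 reference genes, of which 156 had more than 1 antisense locus and up to 5, and 56 antisense loci spanned more than 1 gene. Antisense isoforms had a median length of 979 bases (200 to 7515, with quartiles of 566 and 1586.5), against 1917 bases for all other isoforms and 523.5 bases for the 2760 isoforms with no reference identifier. Of the loci, 1369 lay on numbered chromosomes, where they made up between 2.72% of the loci of chromosome 10 and 6.1% of those of chromosome 2, and 121 lay on unplaced or random sequence. The genome build is not given in the sources used here, and coordinates are as the files give them. A deposited span covers the isoforms of both strands, so it is not the extent of the antisense transcript alone: 1626 of the 1774 isoforms were shorter than their span. None of the reference identifiers matched the gene table at hand (0 matches), so genes are given by identifier only and without a function.

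Most antisense sums were detected in few libraries, and mostly at 1 unit. Of the 38740 values (1490 sums in 26 libraries), 33.2% were detected, against 44.4% of the values of loci without an antisense isoform. Of the antisense values above 0, 70.7% were at 1 unit and 10.6% reached 2 units, against 33.1% at 2 units or more for the other loci, and no antisense sum exceeded 7 units. The number of libraries with detection had a median of 5: 367 sums were detected in a single library, 774 in 1 to 5, 637 in 6 to 25 and 73 in all 26. Another 6 were detected in none. Among loci without antisense isoforms the distribution was two-sided, with 35.9% listed at 0 in all libraries and 23.9% detected in all, against 0.067% and 4.90% of antisense sums. Antisense isoforms exist only through assembly, so the near absence of rows at 0 follows from how they were listed. Of the loci with no reference identifier, also known only through assembly, 0.333% of those up to 500 bases were at 0 in all libraries. Above 500 bases the share was 0.0% in each length class.

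**Figure D1:**
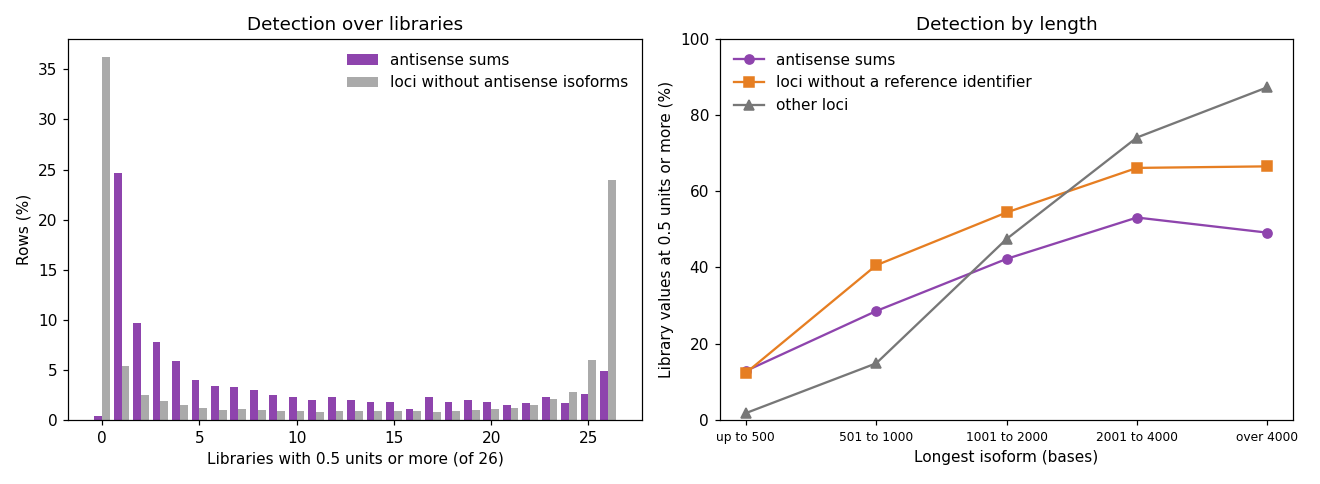
The left panel plots the percent of rows (y axis) by the number of libraries, of 26, in which the row reached 0.5 units (x axis), for the 1490 antisense sums and for all loci without antisense isoforms; antisense sums pile up at 1 library and the other loci at 0 and 26. The right panel plots the percent of library values at 0.5 units or more (y axis) by the length of the longest isoform in bases (x axis, 5 classes), where antisense sums lie below loci without a reference identifier in every class above 500 bases.

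Detection went with length, which is given as a description. Antisense sums with a longest isoform of up to 500 bases were detected in 12.8% of library values, those of up to 1000 bases in 28.6%, of up to 2000 bases in 42.3%, of up to 4000 bases in 53.1%, and the 18 sums over 4000 bases in 49.1%. Loci with no reference identifier, which like the antisense isoforms exist only through assembly, were detected in 12.3%, 40.6%, 54.4%, 66.1% and 66.5% of values in the same classes. Above 500 bases the antisense sums were thus less often detected than these loci in each class. The remaining loci, which carry a reference identifier and no antisense isoform, were detected in 1.78%, 14.9%, 47.5%, 74.1% and 87.3% of values, so that antisense sums were detected more often than they were up to 1000 bases and less often above.

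A small core of antisense transcripts was present throughout. Of the 73 sums detected in all libraries, 44 stood at an identical value in all 26, 43 of them at 1 unit. XLOC_021104, opposite VIT_204s0008g00780 on chromosome 4 (681283 to 682646), was at 2 units in all 26 libraries, and its sense partner stayed below 0.01 units in all of them. The highest mean belonged to XLOC_022279, which lies opposite 6 annotated genes on chromosome 5 (7789932 to 7886922), with a mean of 3.08 units and a range of 1 to 5 units. The next were XLOC_005873 (mean 2.88 units), XLOC_030790 (2.62), XLOC_018925 (2.58), XLOC_025937 (2.40), XLOC_023110 (2.19), XLOC_029550 (2.09), XLOC_007285 (2.06) and XLOC_000166 (2.05). Their sense partners differed widely: that of XLOC_030790 was listed at 0 in all libraries, while that of XLOC_007285 averaged 3.21 units and that of XLOC_005873 was detected in all 26 libraries at 1 or 2 units.

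XLOC_000166, opposite VIT_201s0011g03340 on chromosome 1 (3021314 to 3040742), carried the longest antisense isoform, at 7515 bases, and uneven values. It was listed at 0 in all 3 1-MCP and all 3 control libraries at 6 WAA. At 7 WAA it had 4, 4, 0, 7 and 0 units in 1-MCP clusters and 5, 5, 4, 0 and 1 units in control clusters. At 8 WAA it had 4, 5, 3, 2.28 and 0 units in 1-MCP clusters and 0, 0, 0, 4 and 5 units in control clusters. Libraries of the same group thus differed by up to 7 units, while the sense partner was detected in all 26 at 1 to 5 units.

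Isoforms present in every library covered a wide range of lengths, although detection went with length, as given above. Among the 64 single isoforms detected in all 26 libraries, the 5 shortest were 341, 389, 390, 460 and 481 bases and the 5 longest 3069, 3257, 3497, 3562 and 4562 bases. The shortest, in XLOC_007868 opposite VIT_214s0036g00910, was at 1 unit in every library with the sense partner at 0. The longest, in XLOC_021708 opposite VIT_204s0023g03490, was at 1 or 2 units with the sense partner, a model of 315 bases, also at 0. Between them lay isoforms whose value was not a whole number of units: that of XLOC_016124 (389 bases) was at 0.85 units in 25 libraries and 1 unit in the other, while its sense partner was at 1.15 and 1 units in the same libraries, so that the pair summed to 2 units in all 26.

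Values that were not whole were more frequent among antisense sums than among sums over whole loci, which are unlike sums. Loci without antisense isoforms were summed over all their isoforms, so that units shared between these isoforms became whole again. Among single isoforms of all classes, only 83.9% to 91.2% of the values above 0 in a library were whole. Of the 14457 antisense values above 0, 1671 (11.6%) lay more than 0.01 units from a whole number, against 1.43% of the values of loci without antisense isoforms, and they fell in 391 sums. When the sense partner was added, 1463 of the 1671 (87.6%) became whole, and all 1671 became whole when every isoform of the deposited span was added. In the 1463 values a unit was thus divided between the antisense sum and its sense partner, and in the others it was divided with further isoforms of the span.

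**Figure D2:**
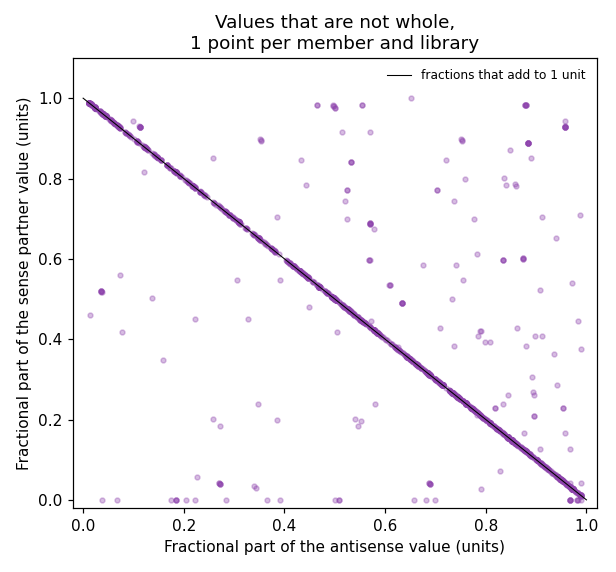
Each of the 1627 points is a locus and library with an antisense value that is not whole and a single sense partner, with the fractional part of the antisense value (units) on the x axis and that of the sense partner value (units) on the y axis; the line marks fractions that add to 1 unit. The 1422 points whose 2 values add to a whole number lie on the line, and the rest are scattered.

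Antisense sums also had values where the sense partner had none. For 191 loci (12.8%) the sense partner was listed at 0 in all 26 libraries; all 191 antisense sums were detected somewhere, 102 of them in 13 or more libraries and 44 in all 26. In 89 of these 102 the antisense isoform was longer than the longest sense isoform, which was so in 330 of all 1490 loci. A listed 0 does not show that a gene is not transcribed, and whether the strand assignment of the isoform or the annotation of the gene holds was not tested.

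Over all combinations of locus and library, both strands were detected in 12.1%, the antisense sum alone in 21.1%, the sense partner alone in 48.8% and neither in 18%. The antisense sum was detected in 19.8% of the combinations in which the sense partner was detected and in 53.9% of those in which it was not. The same held within loci. In the 386 loci whose sense partner was detected in at least 5 and missing in at least 5 libraries, the antisense sum was detected on average in 21.03% of the libraries with the sense partner and in 49.2% of those without it. It was detected more often without the sense partner in 282 loci, less often in 99 and equally often in 5. Leaving out every locus with a value that was not whole gave 17.3% and 50.6% in 261 loci. Libraries are shared by all loci here, and these shares are descriptions with no test.

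At 24 loci exactly 1 of the antisense sum and the sense partner reached 0.5 units in each of the 26 libraries. At 21 of these all values were whole, so the other strand was at 0. The other 3 shared units between strands, and at XLOC_025541 the antisense sum and the sense partner were both at 0.5 units after rounding in 12 libraries, so neither was absent there. In 15 of the 24 both strands were only ever at 0 or 1 unit, so that a single unit sat on 1 strand or the other. At XLOC_000150, opposite VIT_201s0011g03050 on chromosome 1 (2717630 to 2719572), the antisense isoform of 1942 bases and the sense model of 1867 bases were each detected in 13 libraries. Its antisense sum was at 1, 1 and 1 unit in 1-MCP clusters and at 1, 0 and 0 units in control clusters at 6 WAA. At 7 WAA it was at 0, 1, 0, 0 and 0 units in 1-MCP clusters and 1, 1, 0, 1 and 0 units in control clusters, and at 8 WAA at 1, 0, 1, 0 and 0 units in 1-MCP clusters and 1, 1, 1, 0 and 0 units in control clusters. In every group except 1-MCP at 6 WAA, some plants carried the unit on the antisense and others on the sense strand. XLOC_018396, opposite VIT_202s0025g05110, reached higher values, with an antisense sum of up to 4 units and a sense partner of up to 2 units that were never detected together. At 6 WAA its antisense sum was at 3, 3 and 4 units in 1-MCP and at 0 in all 3 control clusters, and its sense partner was at 0 in all 3 1-MCP and at 2, 1 and 2 units in control clusters. The groups did not overlap, the antisense difference did not pass (log2 difference 2.10 ± 0.56 SE, limma adjusted p = 0.477), and this locus is named after its values were seen. At 7 and 8 WAA both treatments held libraries with either strand. Across 27 loci, the antisense sum varied while the total of both strands was the same in all 26 libraries, at 1 unit in 25 of them.

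**Figure D3:**
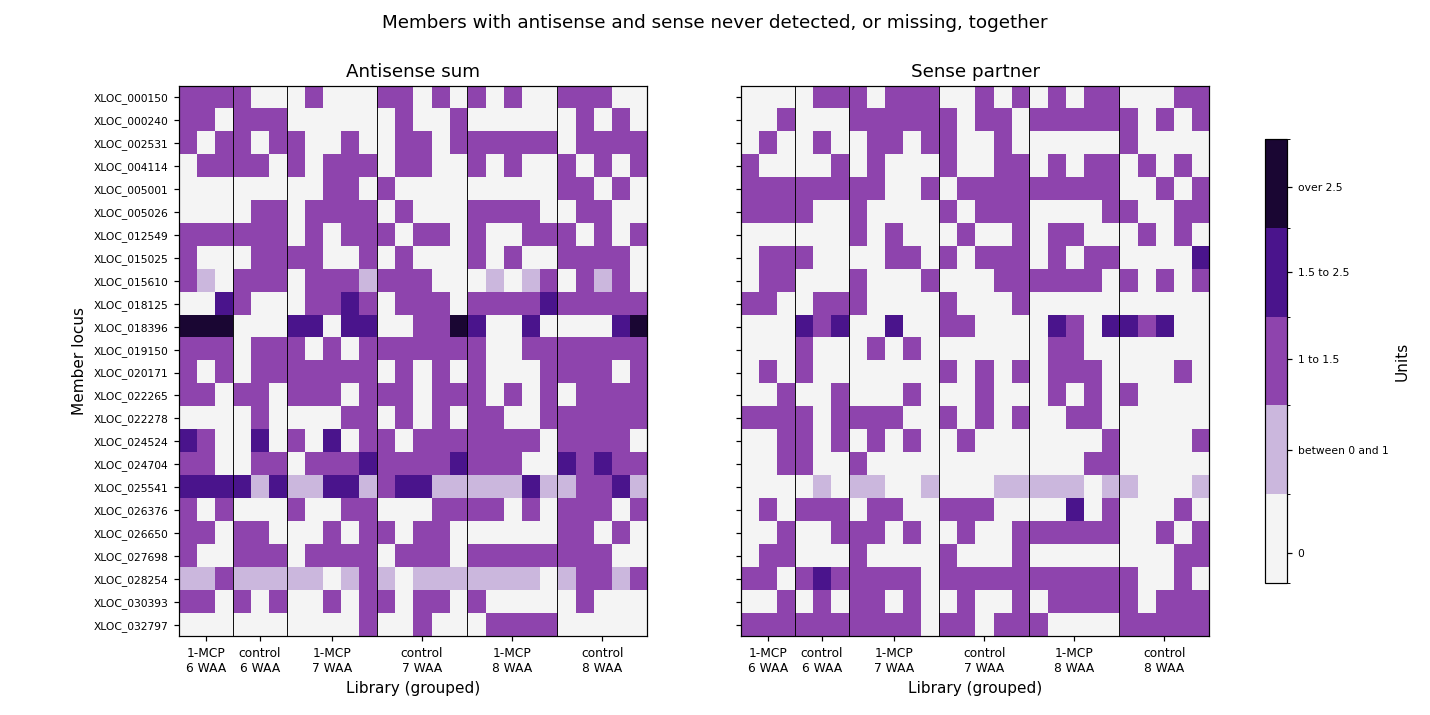
Rows are the 24 loci at which exactly 1 of the antisense sum (left panel) and the sense partner (right panel) was detected in each library, columns are the 26 libraries by group with 1-MCP left of control at each week, and colour gives units. Cells at 0.5 units or more in the left panel are below 0.5 units in the right panel and the reverse, and both kinds occur within most groups.

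The summed antisense units of a library overlapped between treatments at each week and between weeks. They came to 564 ± 17.6 units in 1-MCP and 585 ± 42.4 units in control clusters at 6 WAA (SD, n = 3 each), to 586 ± 23.4 and 569 ± 30.6 units at 7 WAA (1-MCP and control, SD, n = 5 each), and to 552 ± 25.4 and 560 ± 31.1 units at 8 WAA (1-MCP and control, SD, n = 5 each). Within plants the 1-MCP cluster was higher in 6 and lower in 7 of 13, with a mean difference of -1.61 ± 43.8 units (SD). Total units over all loci were higher in the 1-MCP cluster in 12 of 13 plants, by 759.9 units on average. As a share of all units, antisense isoforms made up 2.51%, 2.55% and 2.52% in 1-MCP clusters at 6, 7 and 8 WAA, against 2.66%, 2.58% and 2.66% in control clusters. This share was lower in the 1-MCP cluster in 10 of 13 plants, with a mean difference of -0.0977 ± 0.162 percentage points (SD), and ranged from 2.40% to 2.66% in 1-MCP and from 2.39% to 2.89% in control libraries. Fewer cells of a type and less RNA per cell cannot be told apart in such tissue libraries, and these sums over chosen loci carry no test.

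**Figure D4:**
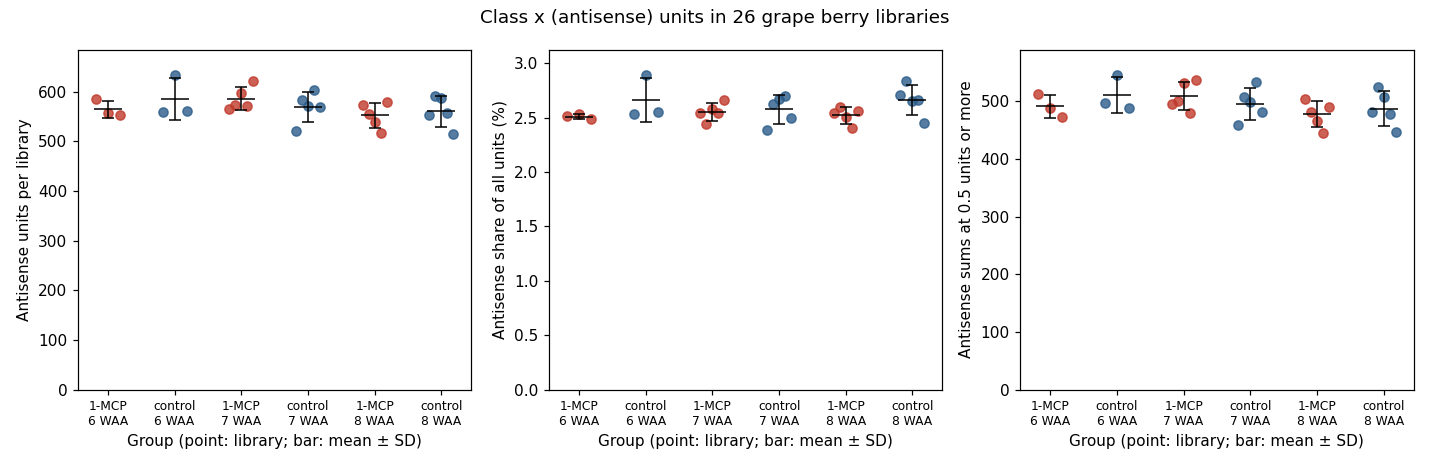
The y axes give, per library, the summed antisense units, their percent of all units and the number of antisense sums at 0.5 units or more; the x axis gives the 6 groups with 1-MCP left of control at each week, points are libraries, and bars are the mean and SD. All libraries lie between 514 and 634 units and between 445 and 546 detected sums, and 1-MCP and control libraries of a week overlap in each panel except in the share at 6 WAA, where 1-MCP libraries reach 2.529% and control libraries start at 2.532%.

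No antisense sum passed the threshold for 1-MCP in any week. Of the 842 sums that had at least 1 unit in at least 3 libraries and varied, 0 had a limma adjusted p below 0.05 at 6, 7 or 8 WAA. An unadjusted p below 0.05 was given by 61, 52 and 44 of them. Of the 15785 tested loci without antisense isoforms, 912, 984 and 789 had an unadjusted p below 0.05. Over all 16702 rows of the table the calls were 0.0359% at 6 WAA (0.0239% higher and 0.012% lower with 1-MCP), 0.0% at 7 WAA and 0.0% at 8 WAA. The median log2 difference of the antisense sums was 0, as it was over all rows. The 75 tested sums of the other isoforms of these loci also gave 0 calls in each week, with 5, 6 and 5 at an unadjusted p below 0.05. The difference of the 1-MCP effect between weeks was tested as well and gave 0 calls among the antisense sums in each of 3 comparisons, with 54 (7 against 6 WAA), 42 (8 against 7 WAA) and 47 (8 against 6 WAA) at an unadjusted p below 0.05. Over all rows these comparisons called 0.0%, 0.0% and 0.00599%. Of the 15785 tested loci without antisense isoforms, 869, 837 and 757 had an unadjusted p below 0.05 in them.

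The sums with the smallest p at 6 WAA separated the clusters completely in 3 plants without passing. Within each group of 6 WAA they hardly varied. Their SE and limma p rest on the spread at 7 and 8 WAA and on that borrowed from other rows, and do not measure a spread between these plants. XLOC_011391 and XLOC_010343 reached 1 unit in 3 libraries only through the control clusters of 6 WAA. XLOC_011391, opposite VIT_216s0050g01310 on chromosome 16 (18178034 to 18179177), was at 0, 0 and 0 units in 1-MCP clusters and at 1, 1 and 1 unit in control clusters at 6 WAA (log2 difference -1.0 ± 0.19 SE, limma adjusted p = 0.12). Its sense partner was at 0, 1 and 1 units in 1-MCP and at 0, 0 and 0 units in control clusters. Without the block for plants, the antisense difference passed (limma adjusted p = 0.0179). That was the only 1 of 8 other settings in which it passed, and it passed in 0 of 3 fits with 1 plant left out. XLOC_004657, opposite VIT_212s0055g01090 on chromosome 12, had the same antisense values and the same adjusted p of 0.12 by limma, and its sense partner was at 1, 1 and 1 unit in 1-MCP and 1, 0 and 0 units in control clusters. XLOC_018467, opposite VIT_202s0012g00320, ran the other way, with 1, 1 and 1 unit in 1-MCP and 0, 0 and 0 units in control clusters (limma adjusted p = 0.349), and its sense partner was listed at 0 throughout. XLOC_010343 tied with it at the same p and ran the way of the first pair, with 0, 0 and 0 units in 1-MCP and 1, 1 and 1 unit in control clusters.

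At 8 WAA the smallest p belonged to XLOC_020998, opposite VIT_204s0044g00560 on chromosome 4 (21395956 to 21396846), an antisense isoform of 890 bases over a sense model of 424 bases that was listed at 0 in all libraries. It was at 1 unit in all 3 1-MCP and 3 control libraries at 6 WAA, and in all 5 1-MCP and 5 control libraries at 7 WAA. At 8 WAA it was at 1, 1, 0, 1 and 1 units in 1-MCP clusters and at 0 in all 5 control clusters. The 1-MCP cluster was higher in 4 of 5 plants at 8 WAA, and the groups overlapped through replicate 3 (log2 difference 0.80 ± 0.15 SE, limma adjusted p = 0.178). Of the 5 fits with 1 plant left out, only the 1 without that plant, which showed no difference, passed (limma adjusted p = 0.0187). In the others the limma adjusted p rose to as much as 0.496, and 0 of 9 other settings passed. The test of the difference of the 1-MCP effect between 8 and 7 WAA gave a limma adjusted p of 0.794.

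XLOC_029647, opposite VIT_209s0002g05270, was at 1, 1, 1, 0 and 1 units in 1-MCP and at 0 in all 5 control clusters at 8 WAA (limma adjusted p = 0.622), and XLOC_021326, opposite VIT_204s0008g05010, was at 0, 0, 1, 0 and 0 units in 1-MCP and at 1 in all 5 control clusters (limma adjusted p = 0.622). Each of these pairs of groups overlapped through 1 library. At 7 WAA the smallest p belonged to XLOC_011883, with 1, 1, 2, 1 and 1 units in 1-MCP and 0, 1, 0, 0 and 0 units in control clusters. XLOC_030268 had 1, 0, 0, 0 and 0 units in 1-MCP and 1, 1, 1, 2 and 2 units in control clusters at 7 WAA, and XLOC_026884 had 0, 1, 1, 0 and 0 units in 1-MCP and 1 unit in each of the 5 control clusters. None of the 3 passed (limma adjusted p = 0.598 each), and no antisense sum was detected in all 5 libraries of either treatment and 0 of the other at 7 or 8 WAA, where all rows gave 0.012% and 0.012% present with 1-MCP alone and 0.018% and 0.00599% present in controls alone.

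The weeks separated a few antisense sums. In control clusters, 12 of 624 tested sums changed between 8 and 6 WAA (limma adjusted p below 0.05), or 1.92%, against 1.52% of all 14569 rows. Of these, 4 (0.641%) were higher at 8 WAA, against 0.254% of all rows, and 8 (1.28%) were lower, against 1.26% of all rows. Between 7 and 6 WAA 2 changed (0.321%), 1 in each direction, against 0.178% of all rows (0.0755% higher and 0.103% lower), and between 8 and 7 WAA 1 was lower (0.16%), against 0.817% of all rows (0.741% lower). In 1-MCP clusters, 5 of 641 tested sums (0.78%) changed between 8 and 6 WAA, 1 higher and 4 lower, against 1.46% of all 14428 rows (0.34% higher and 1.12% lower). Between 7 and 6 WAA 1 was higher (0.156%), against 0.166% of all rows (0.0554% higher), and between 8 and 7 WAA 1 was lower (0.156%), against 0.409% of all rows (0.243% lower). The shares lay above those of the whole table in some comparisons and below them in others, each rests on 12 or fewer sums, and their differences from the whole table were not tested. In all, 18 sums were called at least once. Several entered the test only through the week in which they were high, so the values tested had also selected them. In control clusters, XLOC_010343, XLOC_011391, XLOC_012730, XLOC_015072, XLOC_015612 and XLOC_029755 reached 1 unit in 3 libraries only through 6 WAA. In 1-MCP clusters this was so for XLOC_002548, XLOC_017597 and XLOC_020112 through 6 WAA and for XLOC_019237 through 7 WAA. Values hardly varied within weeks in XLOC_011391, XLOC_020998, XLOC_023817 and XLOC_027010 (control clusters) and in XLOC_019237 (1-MCP clusters). For these sums the SE and the limma p below rest on the spread that limma borrows from other rows. They do not measure a spread between plants. XLOC_004645, XLOC_010343, XLOC_015072, XLOC_016435, XLOC_026100 and XLOC_029755 (control clusters) and XLOC_017597 (1-MCP clusters) hardly varied within 6 or 8 WAA. Their own spread came from 7 WAA, so between 8 and 6 WAA their SE and limma p do not measure a spread between the plants compared.

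**Figure D5:**
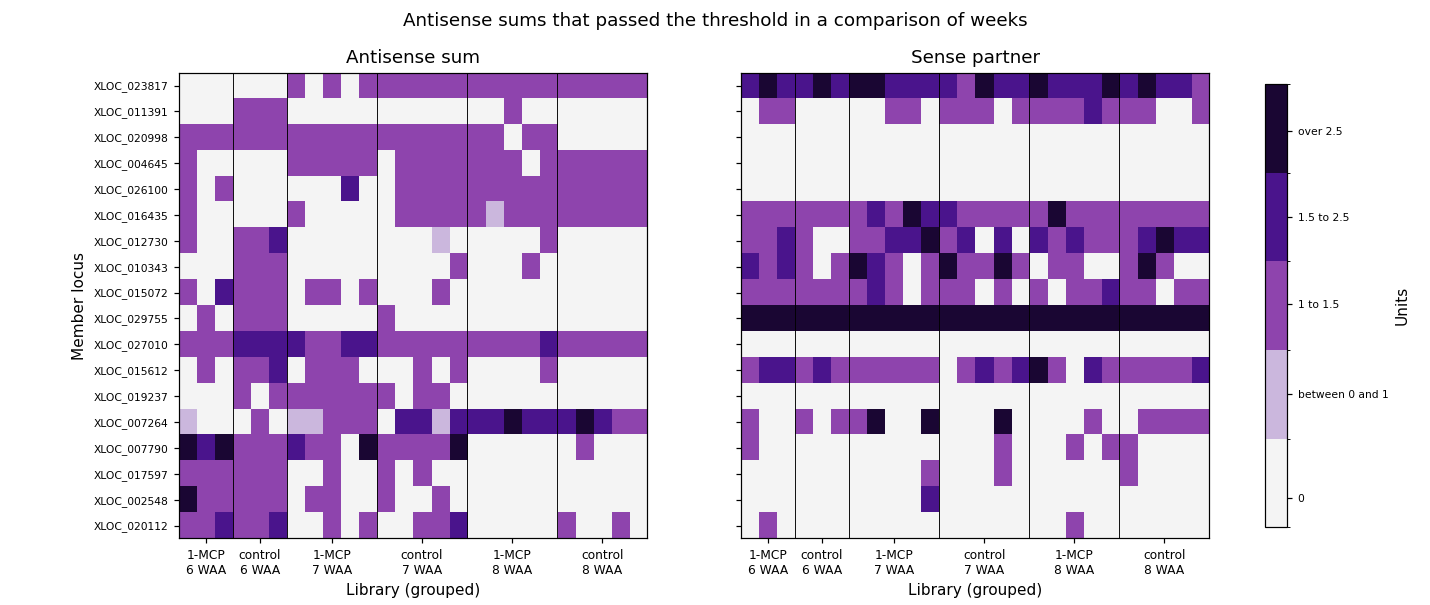
Rows are the 18 antisense sums that passed the threshold in a comparison of weeks, columns are the 26 libraries by group with 1-MCP left of control at each week, and colour gives units of the antisense sum (left panel) and of the sense partner (right panel). The sums differ between weeks mostly by 1 or 2 units, all except XLOC_027010 have libraries at 0, and 5 of the sense partners are at 0 or below 0.01 units in every library.

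Among the sums that were higher later in control clusters, XLOC_023817, opposite VIT_206s0004g02800 on chromosome 6 (3506866 to 3517669), was at 0 in all 3 control clusters of 6 WAA and present at 1 unit in all 5 of 7 WAA and all 5 of 8 WAA. The groups did not overlap between 7 and 6 WAA (log2 difference 1.0 ± 0.12 SE, limma adjusted p = 0.00244) or between 8 and 6 WAA (limma adjusted p = 0.00067). In 1-MCP clusters it was at 0 in all 3 of 6 WAA, at 1, 0, 1, 0 and 1 units in the 5 of 7 WAA and at 1 unit in all 5 of 8 WAA, and the comparison of 8 and 6 WAA did not pass there (limma adjusted p = 0.0783). The antisense values at 6 and 8 WAA were the same as in control clusters, and the uneven values at 7 WAA also entered the spread of this fit. Its sense partner, with a longest isoform of 4861 bases, was detected in all 26 libraries at 1 to 4 units and was not called.

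XLOC_004645, XLOC_026100 and XLOC_016435, opposite VIT_212s0055g00860, VIT_207s0104g00190 and VIT_219s0015g00550, shared a pattern in control clusters. Each was at 1 unit in 0 of 3 at 6 WAA, in 4 of 5 at 7 WAA and in all 5 at 8 WAA (log2 difference of 8 and 6 WAA 1.0 ± 0.22 SE, limma adjusted p = 0.0353 each). In each of them the control library at 0 at 7 WAA was replicate 1. In 1-MCP clusters at 6 WAA they were at 1, 0 and 0 units, 1, 0 and 1 units, and 1, 0 and 0 units, so the 1-MCP groups overlapped. The sense partners of XLOC_004645 and XLOC_026100 were listed at 0 in all libraries, whereas that of XLOC_016435 was detected in all 26.

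Of the sums that were lower later in control clusters, XLOC_020998, described above, was at 1 unit in all 3 control clusters at 6 WAA and all 5 at 7 WAA, and at 0 in all 5 at 8 WAA (log2 difference of 8 and 7 WAA -1.0 ± 0.11 SE, limma adjusted p = 0.000155). It was the only antisense sum detected in all of one control group and in 0 libraries of the other between 8 and 7 WAA (0.16% of the tested sums), where 0.638% of all rows were lost and 0.0412% were gained at 8 WAA. XLOC_011391 was at 1 unit in all 3 control clusters at 6 WAA and at 0 in all 5 at 7 WAA and all 5 at 8 WAA (8 against 6 WAA, limma adjusted p = 0.00067). Its sense partner was at 0 in all 3 control clusters of 6 WAA, at 1, 1, 1, 0 and 1 units in the 5 of 7 WAA and at 1, 1, 0, 0 and 1 units in the 5 of 8 WAA. The control libraries with the antisense unit were thus 3 of those in which the sense partner was missing. XLOC_012730, opposite VIT_217s0000g07560, was at 1, 1 and 2 units in the 3 control clusters of 6 WAA, at 0, 0, 0, 0.56 and 0 units in the 5 of 7 WAA and at 0 in all 5 of 8 WAA (8 against 6 WAA, limma adjusted p = 0.0064). Its sense partner was at 1, 2, 3, 2 and 2 units in control clusters of 8 WAA and at 1.31, 0 and 0 units in those of 6 WAA.

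XLOC_010343, XLOC_015072 and XLOC_029755, opposite VIT_215s0107g00450, VIT_218s0001g11910 and VIT_209s0002g07880, were at 1 unit in all 3 control clusters at 6 WAA, at 1 unit in 1 of 5 at 7 WAA and at 0 in all 5 at 8 WAA (8 against 6 WAA, limma adjusted p = 0.0353 each). The sense partner of XLOC_029755 was among the higher loci, with 8 to 14 units in the control clusters of both weeks. XLOC_015612, opposite VIT_218s0089g00410, was at 0 in all 5 control clusters at 8 WAA and had 1, 1 and 2 units in those of 6 WAA (limma adjusted p = 0.0433). XLOC_027010, opposite VIT_208s0032g00496 on chromosome 8 (3761156 to 3764954), stepped between levels above 0, at 2 units in all 3 control clusters at 6 WAA, 1 unit in all 5 at 7 WAA and 1 unit in all 5 at 8 WAA (log2 difference of 8 and 6 WAA -0.59 ± 0.12 SE, limma adjusted p = 0.0353). Its sense partner, of nearly the same length (3788 against 3562 bases), stayed below 0.01 units in all 26 libraries.

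In 1-MCP clusters, XLOC_019237, opposite VIT_203s0088g00910 on chromosome 3 (9119914 to 9130668), was present at 7 WAA alone. It was at 0 in all 3 1-MCP clusters at 6 WAA, at 1 unit in all 5 at 7 WAA and at 0 in all 5 at 8 WAA. Both changes passed, upwards between 7 and 6 WAA (limma adjusted p = 0.00198) and downwards between 8 and 7 WAA (limma adjusted p = 0.000336). In control clusters it was at 1, 0 and 1 units at 6 WAA, at 1, 0, 1, 1 and 0 units at 7 WAA and was listed at 0 in all 5 at 8 WAA, and the sense partner was listed at 0 in all libraries. It and XLOC_012403, opposite VIT_217s0000g01360, were the 2 antisense sums detected in all 5 1-MCP clusters at 7 WAA and in 0 at 8 WAA (0.312% of the tested sums, against 0.263% of all rows, while 0.152% were gained). XLOC_012403 was at 0 in all 5 1-MCP clusters at 8 WAA and had 2, 1, 1, 2 and 1 units in those of 7 WAA, and did not pass the threshold (limma adjusted p = 0.0799).

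XLOC_007264, opposite VIT_213s0156g00220 on chromosome 13 (24001116 to 24006231), was the antisense sum that was higher at 8 than at 6 WAA in 1-MCP clusters. It was at 2, 2, 3, 1.53 and 2 units at 8 WAA and had 0.53, 0 and 0 units in those of 6 WAA (log2 difference 1.41 ± 0.22 SE, limma adjusted p = 0.00477), and the groups did not overlap. Its sense partner was at 0, 0, 0, 1.47 and 0 units at 8 WAA and had 1.47, 0 and 0 units in those of 6 WAA, so in 2 of these libraries the strands shared a unit. The control clusters had 2, 2.75, 1.83, 1 and 1 units at 8 WAA and 0, 1 and 0 units at 6 WAA and did not pass.

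XLOC_007790, opposite VIT_214s0030g02090, was at 0 in all 5 1-MCP clusters at 8 WAA and had 2.68, 2 and 3 units in those of 6 WAA (log2 difference -1.82 ± 0.33 SE, limma adjusted p = 0.017). In control clusters it was at 0, 1, 0, 0 and 0 units at 8 WAA and at 1 unit in all 3 at 6 WAA. XLOC_017597, XLOC_002548 and XLOC_020112, opposite VIT_202s0025g00740, VIT_210s0003g05230 and VIT_203s0017g02260, were likewise at 0 in all 5 1-MCP clusters at 8 WAA. At 6 WAA they were at 1, 1 and 1 unit (limma adjusted p = 0.0386), at 3, 1 and 1 units (limma adjusted p = 0.0446) and at 1, 1 and 2 units (limma adjusted p = 0.0446). Their sense partners were detected in 3, 1 and 2 of the 26 libraries.

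The sums called in control and in 1-MCP clusters did not coincide in any pair of weeks. Of the 12 sums called in control clusters between 8 and 6 WAA, 8 were tested in 1-MCP clusters, where 7 had the same sign and 2 of these an unadjusted p below 0.05. All 5 sums called in 1-MCP clusters between 8 and 6 WAA had the same sign in control clusters, 4 of them at an unadjusted p below 0.05. Between 8 and 7 WAA the 1 call of each treatment had the same sign in the other. Between 7 and 6 WAA the 1 control call tested in 1-MCP clusters had the same sign there, whereas XLOC_019237, called in 1-MCP clusters, had a log2 difference of -0.07 in control clusters. A call in 1 treatment alone therefore does not show a difference between treatments, for which the tests above gave 0 calls.

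No tested sense partner of a called antisense sum was called in the same comparison (0 of 8 in control and 0 of 2 in 1-MCP clusters between 8 and 6 WAA). Among all tested sense partners, 2 of 339 (0.59%) changed in control and 4 of 342 (1.17%) in 1-MCP clusters between 8 and 6 WAA, against the 1.52% and 1.46% of all rows given above. When the units of both strands were added before the test, 5 of the 12 control calls and 0 of the 5 1-MCP calls between 8 and 6 WAA passed. At XLOC_004645, XLOC_020998, XLOC_026100 and XLOC_027010 the sense partner was at 0 or below 0.01 units throughout. Adding it was therefore no check of their calls. The calls of XLOC_023817 and XLOC_011391 were among those lost, while those of XLOC_020998 and XLOC_019237 passed, since their sense partners were at 0. With 3 libraries at 6 WAA, calls also depended on single libraries. Among the 12 control calls, those of XLOC_020998 and XLOC_023817 passed in all 8 fits with 1 library left out. Those of XLOC_011391 and XLOC_012730 passed in the 5 such fits in which they could be tested. Without a library of 6 WAA these 2 sums fell below the filter, so their dependence on those libraries could not be tested. The other 8 control calls passed in 0 of 8 such fits. Among the 5 1-MCP calls, that of XLOC_007264 passed in all 8, that of XLOC_007790 in 5 of 8, and the other 3 in 0 of 8.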

How the data were processed

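The authors deposited 1 value per isoform and library, a signal on their own scale, and an attribute table with locus, class code, reference identifier, span and length. The submitters' processing notes name Bowtie2 2.2.3. Which program, annotation and genome build made the values is not given in the sources used here. The number of reads, and with it the depth, is unknown. The members and lists were chosen with earlier results of these data known. Each library was divided by its commonest value above 0.5 and values within 0.01 of an integer were called whole. Rows were class x sums, sums of the other isoforms of the same loci, and all other loci. Rows with at least 1 unit in at least 3 libraries that were not constant were fitted as log2(units + 1) with limma 3.58.1 in R 4.3.3 without trend or robust options, with Benjamini-Hochberg adjustment of p over all rows (threshold 0.05). For 1-MCP all 26 libraries were fitted with plant (13 in all) as a block and a treatment coefficient per week; for the weeks, the 13 control or the 13 1-MCP libraries were fitted with a mean per week. The fit was also run on values shuffled within rows over all libraries, with known units added to some rows. The required outcome was only a positive median change in these rows, and the shuffling did not keep the plant pairing. Plant pairing comes from the series design text; the deviations of paired libraries from their group means correlated at -0.0886 to 0.0921. Named sums were those past the threshold, the 3 with the smallest p where none passed, the 10 with the highest mean, the sums present in a whole group and absent from another, and the 5 shortest and 5 longest isoforms found in all libraries. The design had foreseen codes for intergenic and intronic isoforms, and loci without a reference identifier were used for the comparison of lengths in their place.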

Additional observations from a re-analysis of the deposited data

Results flagged for a closer look

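Single libraries stood apart within groups of 5 in many of the named antisense sums. Of 140 combinations of 35 sums and 4 groups, 36 (25.7%), in 22 sums, had a library whose gap to the next, divided by the range of the group, exceeded the critical value of Dixon's test for 5 values, 0.71. Chance flags about 1 in 20 groups of continuous values, but 28 of these combinations were groups in which 4 libraries were at 0 and 1 at 1 unit or the reverse, a step of 1 unit. In the other combinations the library apart was at 2 units (XLOC_011883 and XLOC_026100, 1-MCP, 7 WAA; XLOC_027010, 1-MCP, 8 WAA; XLOC_018925, control, 7 WAA), at 3 units (XLOC_007790 and XLOC_005873, control, 7 WAA), at 0.28 units (XLOC_016435, 1-MCP, 8 WAA) or at 0.56 units (XLOC_012730, control, 7 WAA). Replicate 5 at 8 WAA was the library apart, at 0, in both 1-MCP and control clusters for XLOC_004657 and XLOC_026884. The other isoforms of the loci with antisense transcripts summed to 85.41 units in replicate 12 of the 1-MCP clusters at 7 WAA, against a group median of 55.0 units.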

How the results depend on the processing

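The absence of calls for 1-MCP held in all alternatives at 7 WAA, and elsewhere with 2 exceptions: without the replicate block 1 sum passed at 6 WAA, and with 1 plant left out the number of calls ranged from 0 to 1 at 8 WAA (0 to 0 at 6 and 7 WAA and for the differences between weeks). Counts of calls between weeks were small and moved with most settings. In control clusters, 7 against 6 WAA (2 calls) gave 1 call with a filter of 5 libraries, 0 with trend and robust options, 1 with both strands added, 5 with a replicate block and 0 with only the libraries of the weeks compared; 8 against 7 WAA (1 call) gave 4 with a pseudocount of 0.1, 2 with isoforms one by one and 6 with both strands added; 8 against 6 WAA (12 calls) gave 6 with the filter of 5 libraries, 3 with trend and robust options, 6 with a replicate block and 21 with only the libraries of those weeks. In 1-MCP clusters, 7 against 6 WAA (1 call) gave 0 with trend and robust options, 4 with both strands added, 3 with a replicate block and 7 with only those weeks; 8 against 7 WAA (1 call) gave 2 with a pseudocount of 0.1, 5 with both strands added, 2 with a replicate block and 2 with only those weeks; 8 against 6 WAA (5 calls) gave 2 with trend and robust options, 11 with both strands added, 3 with a replicate block and 11 with only those weeks. With 1 library left out, the control counts ranged from 1 to 6, 1 to 5 and 3 to 5, and the 1-MCP counts from 0 to 2, 1 to 6 and 1 to 4, for 7 against 6, 8 against 7 and 8 against 6 WAA. XLOC_012730 changed sign between 8 and 6 WAA in control clusters when both strands were added (log2 difference 0.11). The cause was not tested. The replicate numbers of different weeks share only a number. The alternatives with both strands added, the differences between weeks and the loci without a reference identifier were chosen after seeing the data. Because most values are 0 or 1 unit, smaller differences are not detectable on this scale.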
